A study of Mus musculus with 12 samples.

Results

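The mitochondrial ribosomal protein genes were taken as the rows of the count table whose symbol begins with Mrpl or Mrps followed by a digit and which held 10 or more counts in every library. Among 25078 genes, 78 carried such a name and 76 met the count rule, 48 named for the large subunit and 28 for the small subunit. The excluded rows were Mrpl23, with 1 to 7 counts per library, and Mrps36, with 0 to 11. Expression was measured by RNA-Seq of donor T cells sorted from the liver on day 6 after hematopoietic cell transplantation (HCT). C57BL/6 donors were WT, STAT3ko (Stat3 fl/fl with CD4-Cre, which removes Stat3 in T cells) or STAT3ko PD-1ko (Stat3 fl/fl with CD4-Cre and PD-1-/-). Their CD90.2+ T cells were given with T cell-depleted marrow of WT C57BL/6 mice to lethally irradiated WT BALB/c recipients. H-2Kb+TCRβ+ cells were sorted into CD4+ and CD8+ subsets, each library pooling livers of 3 recipients, and the 6 groups of 2 libraries gave 12 libraries. The ages of the animals are not given in the sources used here. No group lacked PD-1 alone, so the loss of PD-1 was read on the STAT3ko background.

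The mitochondrial ribosome translates the few proteins encoded by mitochondrial DNA, which are subunits of the respiratory chain and ATP synthase. Its RNAs are mitochondrial transcripts, whereas its proteins are made in the cytosol from nuclear genes and imported. The large subunit carries the peptidyl transferase center and the small subunit the decoding center. Activated T cells build mitochondria and mitochondrial translation machinery as they enter growth and division. No gene of the mitochondrial genome is listed in the count table, so the transcripts this ribosome translates were not analysed here.

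The libraries held 21676125 to 24551477 counts, and the 76 members together took 48842 to 78633 counts, or 0.215% to 0.336% of a library. Levels below are CPM (counts relative to library size, with trimmed-mean or TMM factors over 12 libraries). Stat3 stood at 368 and 467 CPM in the WT CD4 libraries, at 140 and 164 in STAT3ko and at 157 and 219 in STAT3ko PD-1ko. In CD8 libraries Stat3 was at 397 and 384 CPM in WT, 149 and 135 in STAT3ko, and 154 and 235 in STAT3ko PD-1ko. Every knockout library was thus below every WT library. Pdcd1, which encodes PD-1, was at 235 to 323 CPM in the WT and STAT3ko CD4 libraries against 55.1 and 26.0 in STAT3ko PD-1ko, and at 307 to 454 CPM against 93.5 and 65.5 in CD8 libraries. Cd4 reached 1241 to 1887 CPM in libraries labelled CD4 and 0.356 to 2.73 in those labelled CD8, and Cd8a 589 to 1339 CPM in CD8 libraries and 0.424 to 5.64 in CD4 libraries, so that the labelled subsets held their defining coreceptors.

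Levels between members were compared as CPM per kb of exon. The highest mean levels over 12 libraries belonged to the large-subunit genes Mrpl33 (144 CPM per kb), Mrpl9 (78.9) and Mrpl18 (74.9). The lowest were Mrps25 (2.50 CPM per kb), Mrpl48 (2.64) and Mrpl17 (3.77). Long exonic lengths of 4965 to 6712 bases in the table entered the 3 lowest values. Of the 51-base stretches of the principal transcript, 51 bases being the read length, 73.9% of those of Mrps25 also occur in other transcripts, mainly Nr2c2, and 30.1% of those of Mrpl33 do, mainly Gm43809, so the counts of both are uncertain. The share was 12.4% for Mrpl18, 8.39% for Mrpl9, 6.21% for Mrpl48 and 0% for Mrpl17. The mean level per kb of the large-subunit genes was 1.15 to 1.28 times that of the small-subunit genes in each library, with the lowest ratios in the second STAT3ko PD-1ko library of both subsets. The ratio of the subunit medians ran from 0.900 to 1.21, so neither subunit was uniformly higher.

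**Figure D1:**
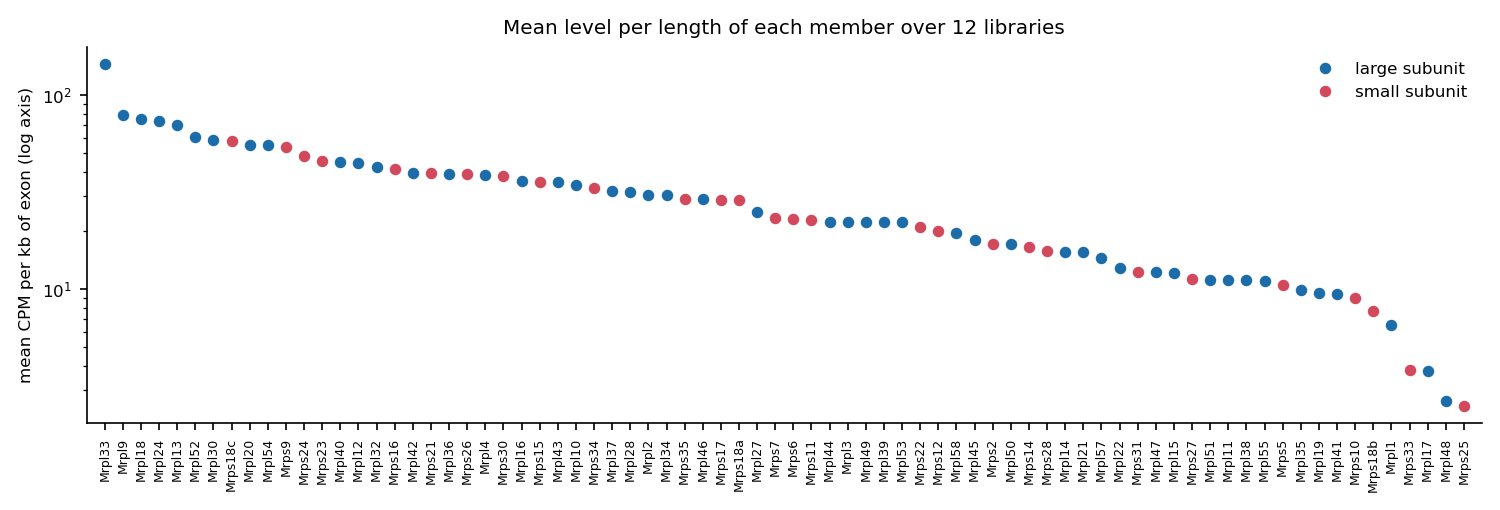
Mean level of each of the 76 members over 12 libraries, in CPM per kb of exon on a log axis, ordered from high to low with large-subunit genes in blue and small-subunit genes in red. Mrpl33 stands at 144 CPM per kb and Mrps25 at 2.50, and the subunits are interleaved along the order.

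Across the 3 genotypes the members were higher in STAT3ko PD-1ko T cells than in WT or STAT3ko T cells in both subsets. Of the 76 members 67 had a positive log2 fold change for STAT3ko PD-1ko against WT in CD4 cells, with a median of 0.31 (1.24-fold), and 64 did in CD8 cells, with a median of 0.28 (1.21-fold). Against STAT3ko the median log2 fold changes were 0.34 in CD4 cells (67 members positive) and 0.31 in CD8 cells (65 positive). STAT3ko against WT gave median log2 fold changes of -0.03 in CD4 cells and -0.06 in CD8 cells, with 30 and 26 members positive. Over all genes tested the median lay within 0.013 of 0 in each of these 6 comparisons. The TMM factors centre the bulk of genes near 0, so that median largely follows from the scaling. Without WT CD4 replicate 1 the STAT3ko against WT median in CD4 cells was 0.0402. The comparisons within a subset share libraries, so their values stand side by side and do not support each other.

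The same order was seen library by library. Relative to the WT mean of each gene, the median log2 level of the members was 0.25 and 0.29 in the STAT3ko PD-1ko CD4 libraries, 0.04 and -0.17 in the STAT3ko CD4 libraries and 0.10 and -0.10 in the WT CD4 libraries. In CD8 cells the medians were 0.26 and 0.28 in STAT3ko PD-1ko, -0.0026 and -0.08 in STAT3ko, and 0.0036 and -0.0036 in WT. The STAT3ko PD-1ko libraries did not overlap the others in either subset, while those of STAT3ko and WT overlapped in both subsets. The library numbers may mark 2 batches, since the titles of the libraries numbered 1 and of those numbered 2 carry separate runs of serial numbers, and each number holds 1 library of every group. Among libraries of the same number, the members' median log2 difference of STAT3ko PD-1ko from WT was 0.17 for number 1 and 0.37 for number 2 in CD4 cells and 0.23 and 0.30 in CD8 cells. From STAT3ko it was 0.20 and 0.43 in CD4 cells and 0.23 and 0.43 in CD8 cells. For STAT3ko against WT it was 0.0073 and -0.0684 in CD4 cells and -0.0348 and -0.0783 in CD8 cells. STAT3ko PD-1ko was thus higher within both numbers.

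**Figure D2:**
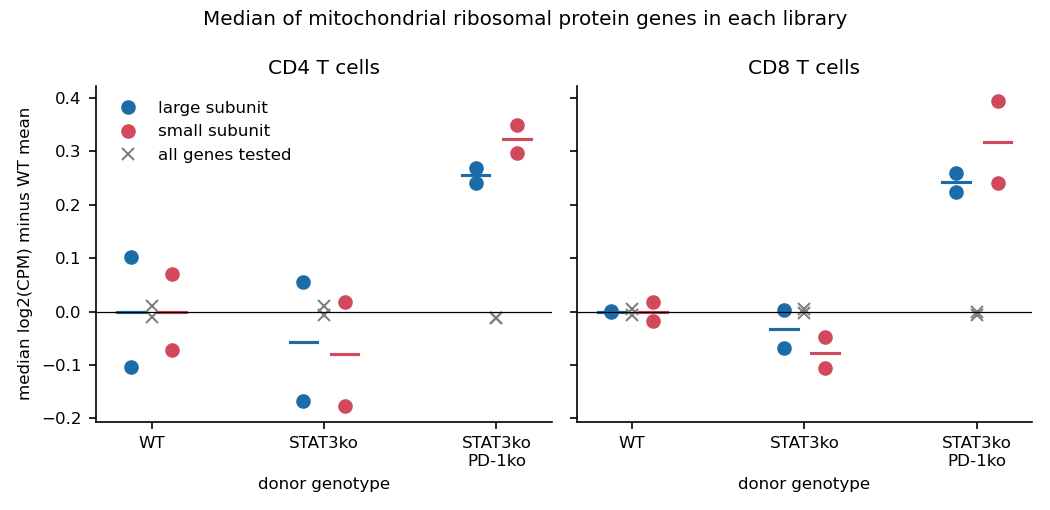
Median over the large-subunit (blue, 48 genes) and small-subunit (red, 28 genes) members of log2 CPM minus the WT mean of the subset, for each library (points) and group (bars, mean of 2 libraries), with all genes tested as grey crosses. All 4 STAT3ko PD-1ko libraries lie above the WT and STAT3ko libraries in both subunits. The median over all genes tested stays near 0, as the TMM factors centre the bulk of genes.

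The number of single members that passed the test in CD4 cells depended on the fit. Without the library number, in the edgeR quasi-likelihood test with Benjamini-Hochberg adjustment over all genes, 3 of 76 members rose in STAT3ko PD-1ko against WT CD4 cells (3.95%, where 7.21% of all genes tested rose and 5.65% fell), and none fell. Against STAT3ko, 6 of 76 rose in CD4 cells (7.89%, background 6.05% higher and 5.03% lower). These shares are near or under the background. With the number as a replicate block, 13 of 76 rose against WT (17.1%, background 13.8%) and 18 of 76 against STAT3ko (23.7%, background 13.2%), where 1 fell (1.32%, background 12.8%). DESeq2 without the number called 7 higher against WT (9.21%, background 9.24%), and against STAT3ko 14 higher (18.4%, background 8.96%) and 1 lower (1.32%, background 8.6%). A larger part of the members had both STAT3ko PD-1ko libraries above both libraries compared: 51 of 76 (67.1%) against WT, where 29.6% of all genes did, and 49 of 76 (64.5%) against STAT3ko, where 28.5% did. Both lay below for 4 members against WT (5.26%, background 29.5%) and for 3 against STAT3ko (3.95%, background 30.8%). In the fit without the block, no member was called against WT without either WT CD4 library, or without either STAT3ko PD-1ko CD4 library. In the same fits 5.82% and 4.60% of all genes were called without WT replicate 1 or 2, and 1.28% and 0.527% without STAT3ko PD-1ko replicate 1 or 2, compared with 12.9% with all libraries. Without STAT3ko CD4 replicate 1 or 2, 6 members and 16.3% or 16.2% of all genes were called. Against STAT3ko no member was called without STAT3ko PD-1ko replicate 1 (0.544% of all genes) or 2 (0% of all genes). There 1 was called without STAT3ko replicate 2 (4.5% of all genes) and 7 without STAT3ko replicate 1 (9.78% of all genes), compared with 11.1% of all genes with all libraries.

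In CD8 cells more members passed. Against WT 10 of 76 rose (13.2%, background 9.01%) and Mrpl58 fell (background 8.21% lower), and against STAT3ko 18 of 76 rose (23.7%, background 8.76%) and Mrpl58 fell (background 8.05% lower). Both STAT3ko PD-1ko libraries exceeded both WT libraries for 51 members (67.1%, background 29.9%) and both STAT3ko libraries for 54 (71.1%, background 31.6%). They lay below both WT libraries for 4 members (5.26%, background 29.8%) and below both STAT3ko libraries for 7 (9.21%, background 31.6%). With the replicate block 17 of 76 rose against WT (22.4%, background 12.6%) and 1 fell (background 12.1%), and 24 rose against STAT3ko (31.6%, background 12.5%) and 1 fell (background 11.9%). Without the block, the total of 11 called against WT (17.2% of all genes) fell to 0 without WT CD8 replicate 2 (5.74%) or STAT3ko PD-1ko replicate 2 (0.933%), to 1 without WT replicate 1 (9.11%), to 3 without STAT3ko PD-1ko replicate 1 (7.19%) and to 7 without STAT3ko replicate 1 or 2 (15.7% or 15.8%). The 19 called against STAT3ko (16.8% of all genes) fell to 0 without replicate 2 of STAT3ko (3.78%) or of STAT3ko PD-1ko (0.0167%), to 3 without STAT3ko replicate 1 (9.99%) and to 6 without STAT3ko PD-1ko replicate 1 (9.27%).

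With the replicate block STAT3ko against WT called no member in either subset (2.53% and 0.0750% of all genes called in CD4 and CD8 cells). Without the block none was called either. In CD4 cells 1 member had an unadjusted p under 0.05, as did 10.5% of all genes tested, and in CD8 cells 4 members and 11% of all genes did, and DESeq2 also called 0 in both. Of all genes tested 0.151% rose and 0.184% fell in CD4 cells, and 0.0167% rose and 0.0417% fell in CD8 cells. Both STAT3ko libraries lay above both WT libraries for 6 members in CD4 cells (7.89%, background 18.8%) and for 13 in CD8 cells (17.1%, background 22.5%). They lay below both for 14 members in CD4 cells (18.4%, background 19.3%) and for 19 in CD8 cells (25%, background 21.1%). The smallest p values in CD4 cells were those of Mrps18b (log2 fold change -0.85 ± 0.25 SE, edgeR adjusted p = 0.263) and Mrpl1 (0.40 ± 0.18, adjusted p = 0.519), and in CD8 cells those of Mrpl20 (-0.36 ± 0.14, adjusted p = 0.421) and Mrpl49 (0.31 ± 0.12, adjusted p = 0.423). None of these passed.

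**Figure D3:**
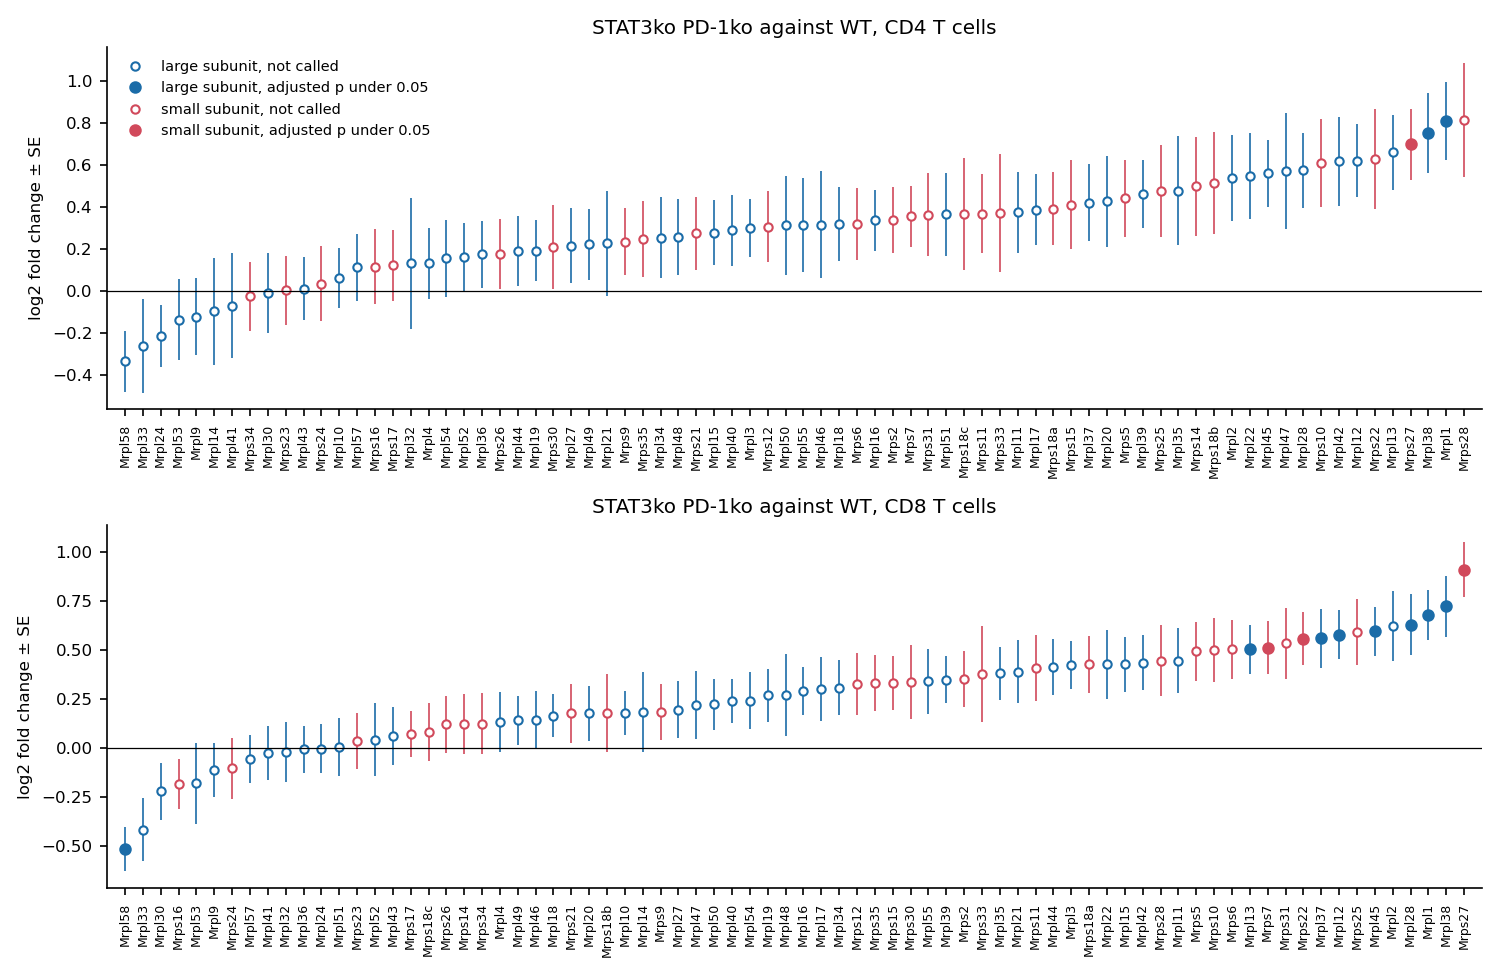
Log2 fold change with its standard error of each of the 76 members for STAT3ko PD-1ko against WT in CD4 cells (upper panel) and CD8 cells (lower panel), sorted from low to high, with large-subunit genes in blue, small-subunit genes in red and filled points for adjusted p under 0.05. In CD4 cells 67 and in CD8 cells 64 points lie above 0, and Mrpl58 is the lowest in both panels.

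Among small-subunit genes, Mrps27 passed in all 4 comparisons of STAT3ko PD-1ko cells. It encodes an RNA-binding protein with pentatricopeptide repeats and lies at chr13:99344786-99415561 (mm10, plus strand). Mrps27 was at 16.1 and 15.1 CPM in WT CD4 libraries, 14.6 and 13.7 in STAT3ko, and 24.1 and 25.8 in STAT3ko PD-1ko. In CD8 libraries Mrps27 was at 18.5 and 17.9 CPM in WT, 19.5 and 17.7 in STAT3ko, and 32.1 and 35.7 in STAT3ko PD-1ko. WT and STAT3ko libraries lay together and STAT3ko PD-1ko libraries stood clear above them. The log2 fold changes were 0.70 ± 0.17 (SE, edgeR adjusted p = 0.0375) against WT and 0.84 ± 0.17 (adjusted p = 0.0268) against STAT3ko in CD4 cells, and 0.91 ± 0.14 (adjusted p = 0.00934) and 0.88 ± 0.14 (adjusted p = 0.0112) in CD8 cells. The principal Mrps27 transcript shares 15.1% of its 51-base stretches with other transcripts, mainly 6430562O15Rik, and the strand setting of the counting is not given in the sources used here.

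Mrps22 (chr9:98588730-98601679), a small-subunit protein whose inherited loss causes oxidative phosphorylation deficiency in humans, was at 21.2 and 17.7 CPM in WT CD4 libraries, 24.5 and 15.3 in STAT3ko and 29.3 and 29.8 in STAT3ko PD-1ko. In CD8 libraries Mrps22 was at 22.5 and 25.8, 23.04 and 23.67, and 36.6 and 34.0 CPM in the same order. It rose in CD8 cells, by 0.56 ± 0.14 on the log2 scale against WT (adjusted p = 0.0334) and 0.61 ± 0.14 against STAT3ko (adjusted p = 0.0275). In CD4 cells its log2 fold changes of 0.63 ± 0.24 and 0.59 ± 0.24 did not pass (adjusted p = 0.131 and 0.1496), and did with the replicate block (adjusted p = 0.0400 and 0.0455). The spread between the STAT3ko CD4 libraries was wider than that between the CD8 libraries.

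Mrps28 (chr3:8802146-8923857), another small-subunit gene, was at 8.95 and 7.83 CPM in WT CD4 libraries, 7.67 and 4.67 in STAT3ko and 13.2 and 15.8 in STAT3ko PD-1ko, a rise of 1.25 ± 0.28 on the log2 scale against STAT3ko (adjusted p = 0.0320). Mrps28 also rose against STAT3ko in CD8 cells, by 0.85 ± 0.18 (adjusted p = 0.0247), from 9.58 and 9.24 to 15.2 and 18.4 CPM. The WT CD8 mean of 12.5 CPM lay between, and against WT Mrps28 did not pass with the replicate block (0.44, edgeR adjusted p = 0.0932). Mrps5, which lines the entry of the mRNA channel, and Mrps10 rose against STAT3ko in CD8 cells (log2 fold changes of 0.62 ± 0.15 and 0.77 ± 0.17). Mrps7 rose against WT in CD8 cells (0.51 ± 0.13). With the replicate block Mrps28 also passed against WT in CD4 cells (0.82, edgeR adjusted p = 0.0406). Mrps10 did so in CD4 cells against WT and STAT3ko (adjusted p = 0.0496 and 0.0433). Mrps5 passed against WT in CD8 cells (adjusted p = 0.0467) and Mrps7 against STAT3ko in CD4 cells (adjusted p = 0.0327).

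Mammals have 3 relatives of bacterial ribosomal protein S18, encoded by Mrps18a, Mrps18b and Mrps18c. Mrps18b (chr17:35910380-35916440) was at 6.77 and 8.97 CPM in WT CD4 libraries, 4.14 and 4.58 in STAT3ko and 10.1 and 12.1 in STAT3ko PD-1ko. The STAT3ko libraries were the lowest and the 3 groups did not overlap. It had the largest log2 rise of the members called, 1.36 ± 0.25 against STAT3ko in CD4 cells (adjusted p = 0.0203). In CD8 libraries Mrps18b was at 9.96 and 8.98 CPM in WT, 10.0 and 8.05 in STAT3ko and 9.94 and 11.3 in STAT3ko PD-1ko, and the groups overlapped (log2 fold change 0.25 ± 0.20 against STAT3ko, adjusted p = 0.411). The difference between subsets in this contrast was -1.11 ± 0.29 and did not pass (adjusted p = 0.734). Of the 51-base stretches of the principal Mrps18b transcript 63.7% also occur in other transcripts, mainly Gm16279, so its counts are uncertain. Mrps18a and Mrps18c had log2 fold changes of 0.39 ± 0.17 and 0.37 ± 0.27 against WT in CD4 cells and of 0.42 ± 0.15 and 0.08 ± 0.15 in CD8 cells, none called. Against STAT3ko in CD8 cells Mrps18a went from 24.4 and 21.6 to 30.2 and 34.3 CPM. DESeq2 called that rise (log2 fold change 0.49, adjusted p = 0.0326), and edgeR without the replicate block did not.

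Of the large-subunit genes, Mrpl12 (chr11:120484637-120488754) encodes a stalk protein that also binds the mitochondrial RNA polymerase. It was at 35.5 and 32.6 CPM in WT CD4 libraries, 33.2 and 25.6 in STAT3ko and 49.5 and 53.4 in STAT3ko PD-1ko, and at 46.2 and 41.6, 39.4 and 36.0, and 62.5 and 67.5 in CD8 libraries. No STAT3ko PD-1ko library overlapped another group. Mrpl12 rose against STAT3ko in CD4 cells (log2 fold change 0.83 ± 0.17, adjusted p = 0.0289) and in CD8 cells (0.80 ± 0.13, adjusted p = 0.0105), and against WT in CD8 cells (0.58 ± 0.12, adjusted p = 0.0229). Against WT in CD4 cells its log2 fold change of 0.62 ± 0.17 did not pass (adjusted p = 0.0564), and did with the replicate block (adjusted p = 0.0203).

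Mrpl38 (chr11:116131817-116138868), a gene of the central protuberance, rose in all 4 comparisons. It was at 10.4 and 12.02 CPM in WT CD4 libraries, 10.3 and 10.6 in STAT3ko and 17.9 and 19.4 in STAT3ko PD-1ko, and at 14.5 and 14.4, 14.9 and 16.2, and 22.1 and 25.2 in CD8 libraries. Its log2 fold changes were 0.75 ± 0.19 and 0.85 ± 0.19 against WT and STAT3ko in CD4 cells (adjusted p = 0.0432 and 0.0344), and 0.72 ± 0.16 and 0.62 ± 0.15 in CD8 cells (adjusted p = 0.0226 and 0.0376). Mrpl1 (chr5:96210115-96266727), part of the stalk that moves tRNAs out of the exit site, was at 18.8 and 18.6 CPM in WT CD4 libraries, 28.2 and 21.1 in STAT3ko and 32.5 and 32.1 in STAT3ko PD-1ko. Mrpl1 rose against WT in CD4 cells (0.81 ± 0.18) and against both groups in CD8 cells (0.68 ± 0.13 and 0.56 ± 0.13). Mrpl28 rose in 3 comparisons without the replicate block, against STAT3ko in CD4 cells (0.71 ± 0.18) and against both groups in CD8 cells (0.63 ± 0.16 and 0.57 ± 0.16). With the block it also passed against WT in CD4 cells (0.57, edgeR adjusted p = 0.0217).

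Mrpl13 had the pattern most like the mean of the other members over the 12 libraries (Pearson r = 0.974 of log2 CPM centred within each subset, a description over libraries that share scaling factors). It was at 46.7 and 36.4 CPM in WT CD4 libraries, 46.9 and 39.0 in STAT3ko and 61.9 and 67.3 in STAT3ko PD-1ko, without overlap of STAT3ko PD-1ko with the others. Mrpl13 rose in CD8 cells (0.50 ± 0.13 against WT and 0.55 ± 0.13 against STAT3ko). Its log2 fold changes in CD4 cells, 0.66 ± 0.18 and 0.61 ± 0.18, did not pass (edgeR adjusted p = 0.0514 and 0.0694), and did with the replicate block (adjusted p = 0.0154 and 0.0226). The principal Mrpl13 transcript shares 23.9% of its 51-base stretches with other transcripts, mainly Mtbp. Next were Mrps22 (r = 0.967) and Mrpl12 (r = 0.965). The median r over the members was 0.792, 55 of 76 had r over 0.5 and 6 had r under 0. Other members that rose in CD8 cells were Mrpl45, which lies at the exit of the peptide tunnel (0.59 ± 0.13 against WT, 0.55 ± 0.13 against STAT3ko), Mrpl37 against WT, and Mrpl2, Mrpl3, Mrpl11, Mrpl20, Mrpl35, Mrpl42 and Mrpl47 against STAT3ko. Of these the largest was that of Mrpl2 (0.83 ± 0.18). Mrpl11, at the base of the stalk, rose by 0.63 ± 0.17, Mrpl42 by 0.57 ± 0.14 and Mrpl3, near the peptidyl transferase center, by 0.50 ± 0.12. With the replicate block Mrpl45 and Mrpl37 also passed against WT and STAT3ko in CD4 cells (edgeR adjusted p = 0.0239 and 0.0285, and 0.0446 and 0.0461). Mrpl2, Mrpl3 and Mrpl11 passed there against STAT3ko (adjusted p = 0.0261, 0.0292 and 0.0302) and Mrpl42 against WT (adjusted p = 0.0353). In CD8 cells Mrpl2 and Mrpl3 passed against WT with the block (adjusted p = 0.0495 and 0.0463).

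**Figure D4:**
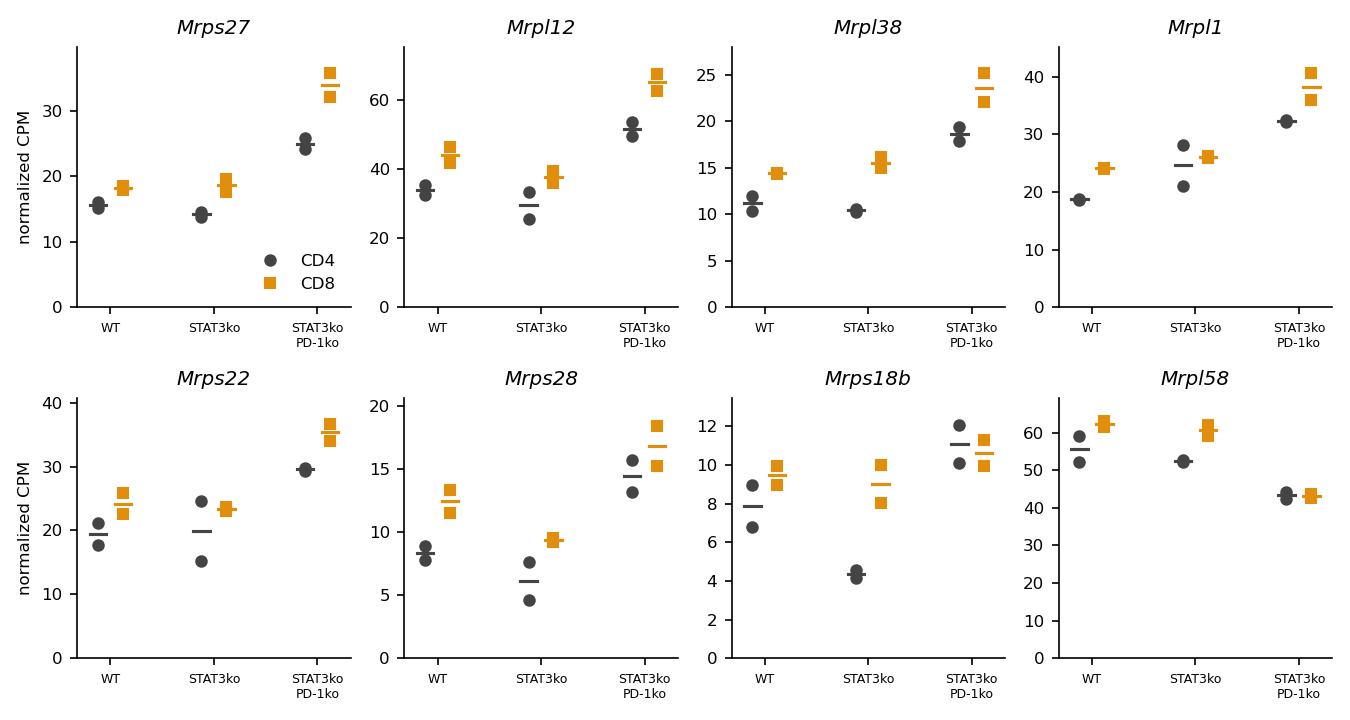
Normalized CPM of 8 members in each library, with CD4 libraries as grey circles, CD8 libraries as orange squares and the mean of 2 libraries as a bar, on axes that start at 0. For Mrps27, Mrpl12 and Mrpl38 the STAT3ko PD-1ko libraries stand above the other groups of the subset, and for Mrpl58 they stand below.

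Mrpl58 (chr11:115403752-115412674) went the other way. It encodes a peptidyl-tRNA hydrolase of the release factor family that is built into the large subunit and frees stalled ribosomes. Mrpl58 was at 59.0 and 52.1 CPM in WT CD4 libraries, 52.7 and 52.1 in STAT3ko and 44.4 and 42.4 in STAT3ko PD-1ko, and at 63.1 and 61.6, 59.2 and 62.1, and 42.6 and 43.8 in CD8 libraries. In both subsets the STAT3ko PD-1ko libraries were the lowest without overlap. It fell in CD8 cells, by 0.52 on the log2 scale against WT (SE 0.11, adjusted p = 0.0230) and by 0.48 against STAT3ko (SE 0.11, adjusted p = 0.0315). The log2 fold changes of -0.34 ± 0.14 and -0.26 ± 0.14 in CD4 cells did not pass (adjusted p = 0.175 and 0.281). Its pattern was the least like the mean of the other members (r = -0.801).

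Mrpl9, Mrpl24, Mrpl33 and Mrpl41 also had negative log2 fold changes in the 4 comparisons of STAT3ko PD-1ko cells, none of which passed without the replicate block. Those of Mrpl9, the most abundant member in CPM, ran from -0.12 to -0.08 and those of Mrpl41 from -0.13 to -0.02, with overlapping libraries in each comparison. Mrpl24 was at 76.8 and 68.0 CPM in WT CD4 libraries, 93.5 and 82.6 in STAT3ko and 63.3 and 59.5 in STAT3ko PD-1ko (-0.50 ± 0.15 against STAT3ko, adjusted p = 0.0691). That difference passed with the replicate block (edgeR adjusted p = 0.0182) and by DESeq2 (adjusted p = 0.0238), and the groups did not overlap. Of its 51-base stretches 42.4% occur in other transcripts, mainly of the neighbour Rrnad1. Mrpl33, the most abundant member per length, was at 69.5 and 90.5 CPM in WT CD8 libraries and 62.5 and 56.6 in STAT3ko PD-1ko (-0.42 ± 0.16, adjusted p = 0.119). Mrps12, of the decoding center, had log2 fold changes of 0.31 ± 0.17 and 0.32 ± 0.16 against WT in CD4 and CD8 cells, and Mrpl44, which has a ribonuclease III-like fold, had 0.19 ± 0.17 and 0.41 ± 0.14. The corresponding values were 0.11 ± 0.18 and -0.19 ± 0.13 for Mrps16, -0.03 ± 0.16 and 0.12 ± 0.16 for Mrps34, and 0.25 ± 0.18 and 0.33 ± 0.14 for Mrps35, none called. Mrps30, which despite its name sits in the large subunit, had 0.21 ± 0.20 and 0.33 ± 0.19.

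Large and small subunits were compared by their medians. For STAT3ko PD-1ko against WT the median log2 fold change was 0.28 over 48 large-subunit and 0.36 over 28 small-subunit genes in CD4 cells, and 0.24 and 0.33 in CD8 cells. Against STAT3ko the medians were 0.34 and 0.34 in CD4 cells and 0.30 and 0.34 in CD8 cells. Positive values were given by 40 of 48 large-subunit and 27 of 28 small-subunit genes against WT in CD4 cells, and by 38 of 48 and 26 of 28 in CD8 cells. The large minus small difference in CD8 cells against WT, -0.09, ranged from -0.17 to 0.02 when single libraries were left out, so its direction rested on STAT3ko PD-1ko CD8 replicate 2 (0.02 without it). In CD4 cells the difference of -0.08 was 0.03 without WT CD4 replicate 1. Assigning Mrps30 and Mrps18a to the large subunit, where structures place them, left differences of -0.08 in both subsets.

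CD8 libraries held more of the members than CD4 libraries of the same genotype, by 1.15-fold in the median in WT and STAT3ko and by 1.12-fold in STAT3ko PD-1ko. The median log2 differences were 0.20, 0.21 and 0.17, with 70, 64 and 71 of 76 members positive. In 1 fit of 12 libraries, 0 members were called in WT (10 with an unadjusted p under 0.05, as had 22.1% of all genes tested, and 2 by DESeq2), 2 in STAT3ko and 0 in STAT3ko PD-1ko (6 with an unadjusted p under 0.05, as had 14.7% of all genes tested, and 0 by DESeq2). Both subsets came from the same livers, and with a term for the pool of recipients the counts were 7 (9.21%), 13 (17.1%) and 2 (2.63%), all higher in CD8, where 11.2%, 12.1% and 5.89% of all genes tested were higher. Without the term, 4.91%, 4.81% and 1.65% of all genes tested were higher in CD8 and 5.59%, 4.82% and 2.5% were lower in WT, STAT3ko and STAT3ko PD-1ko. The called genes in STAT3ko were Mrps18b (log2 difference 1.05 ± 0.21, adjusted p = 0.0121) and Mrpl38 (0.58 ± 0.15, adjusted p = 0.0386), and both passed with the pool term (adjusted p = 0.00466 and 0.00733). Without the term, 1 of them was called without STAT3ko CD4 replicate 1 (6.27% of all genes) or STAT3ko CD8 replicate 2 (4.8%), and 0 without STAT3ko CD4 replicate 2 (4.78%) or STAT3ko CD8 replicate 1 (3.56%), compared with 9.62% with all libraries. The smallest p values that did not pass without the pool term were those of Mrpl42 (0.61 ± 0.18, adjusted p = 0.0629) and Mrpl47 (0.71 ± 0.23, adjusted p = 0.0894) in WT, and Mrps27 (0.44 ± 0.13, adjusted p = 0.107) and Mrps5 (0.35 ± 0.14, adjusted p = 0.265) in STAT3ko PD-1ko. With the term Mrpl42, Mrpl47 and Mrps27 passed (edgeR adjusted p = 0.0305, 0.0313 and 0.0151) and Mrps5 did not (adjusted p = 0.0756). The other members higher in CD8 cells with the term were Mrpl12, Mrpl13, Mrpl38, Mrpl51 and Mrps28 in WT, Mrpl12 in STAT3ko PD-1ko, and Mrpl10, Mrpl12, Mrpl16, Mrpl28, Mrpl36, Mrpl40, Mrpl51, Mrpl55, Mrpl57, Mrps27 and Mrps28 in STAT3ko. Mrpl12 was thus called in each genotype (log2 differences of 0.37, 0.37 and 0.34 in WT, STAT3ko and STAT3ko PD-1ko).

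Whether a genotype difference itself differed between CD8 and CD4 cells was tested by interaction contrasts. These called 0 members, and 0 by DESeq2, with 1 member at an unadjusted p under 0.05 for STAT3ko against WT, 0 for STAT3ko PD-1ko against WT and 1 for STAT3ko PD-1ko against STAT3ko. Of all genes tested 1.85%, 4.43% and 3.59% had such a p in the same order, and 0%, 0.00811% and 0% were called. The larger number of members called in CD8 cells is therefore not shown to be a difference between the subsets.

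The partners of these genes were read from lists of named genes. Their calls come from the edgeR fits without the replicate block unless the block is named, and are read against the shares of all genes that rose, which against WT were 7.21% in CD4 and 9.01% in CD8 cells, and 13.8% and 12.6% with the block. Against STAT3ko these shares were 6.05% and 8.76%, and 13.2% and 12.5% with the block. Of 5 mitoribosome proteins with other names, Dap3, Chchd1, Aurkaip1, Ptcd3 and Gadd45gip1, the median log2 fold change for STAT3ko PD-1ko against WT was 0.38 in CD4 and 0.37 in CD8 cells, and Ptcd3 rose in CD8 cells (0.59 ± 0.12). With the block 1 of 5 rose against WT in CD4 (20%) and 2 of 5 in CD8 cells (40%). Against STAT3ko 1 of 5 rose in each subset with the block (20%). Of 29 assembly and rRNA modification genes, C1qbp, a matrix protein needed for mitochondrial translation, rose in all 4 comparisons. C1qbp was at 59.2 and 60.9 CPM in WT CD4 libraries, 54.4 and 49.5 in STAT3ko and 105 and 122 in STAT3ko PD-1ko, and at 83.9 and 65.7, 89.4 and 60.0, and 158 and 183 in CD8 libraries. These are rises of 0.94 ± 0.15 and 1.15 ± 0.15 against WT and STAT3ko in CD4 cells and of 1.20 ± 0.21 and 1.21 ± 0.21 in CD8 cells. Rcc1l, a factor of large-subunit assembly, was at 16.7 and 16.3 CPM in WT CD4 libraries, 9.04 and 9.82 in STAT3ko and 14.9 and 17.9 in STAT3ko PD-1ko. It was thus higher than in STAT3ko (0.82 ± 0.20, adjusted p = 0.0403) at a level that overlapped WT (0.02 ± 0.19, adjusted p = 0.972). In CD8 libraries Rcc1l was at 13.4 and 13.7, 12.2 and 9.81, and 18.03 and 21.5 CPM, and rose against STAT3ko (0.86 ± 0.18). Fastkd2 rose against STAT3ko in CD8 cells (0.62 ± 0.16). The list median was 0.05 in CD4 and 0.10 in CD8 cells against WT, with 1 of 29 called in each (3.45%). With the block 3 of 29 rose in each (10.3%), and 7 (24.1%) and 6 (20.7%) rose against STAT3ko in CD4 and CD8 cells.

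Translation factors (15 genes) had medians of 0.33 and 0.34 against WT in CD4 and CD8 cells with 0 and 3 called (0% and 20%), and with the block 4 rose in each (26.7%). The 3 were Lrpprc, which with Slirp stabilizes mitochondrial mRNAs (0.70 ± 0.12), the elongation factor Gfm1 (0.52 ± 0.13), and Gfm2 (0.73 ± 0.14), which acts in ribosome recycling. Against STAT3ko in CD8 cells Lrpprc (0.59 ± 0.12) and Guf1 (0.55 ± 0.15) rose. With the block 3 of 15 rose against STAT3ko in each subset (20%). Of 20 genes that charge mitochondrial tRNAs, 17 synthetases and the amidotransferase subunits Gatb, Gatc and Qrsl1, the synthetase genes Tars2 (0.57 ± 0.15) and Iars2 (0.41 ± 0.11) rose against WT and Ears2 (0.89 ± 0.20) against STAT3ko in CD8 cells, and none was called in CD4 cells without the block (0 by edgeR, with 1 of 20 at an unadjusted p under 0.05 against WT and 2 against STAT3ko). With the block 2 of 20 rose in both CD4 comparisons (10%), Aars2 and Tars2 against WT and Ears2 and Iars2 against STAT3ko. In CD8 cells 3 of 20 rose against WT (15%) and 2 against STAT3ko (10%) with the block. The medians of the 20 were 0.32 and 0.37 against WT, and those of the 17 synthetases 0.31 and 0.36. Of 13 genes of mitochondrial DNA expression Pnpt1 rose against STAT3ko in CD8 cells (0.47 ± 0.13), while Tfam, which packages mitochondrial DNA, had log2 fold changes of 0.21 ± 0.16 and 0.08 ± 0.12 against WT. With the block 1 of 13 rose against WT in CD4 cells and 1 against STAT3ko in CD8 cells (7.69% each). None rose with the block against WT in CD8 or against STAT3ko in CD4 cells. Of the regulators of mitochondrial biogenesis, Pprc1 rose against STAT3ko in both subsets (0.87 ± 0.20 and 0.78 ± 0.12) and Esrra fell in CD8 cells against WT (-0.68 ± 0.19, adjusted p = 0.0459). With the block 1 of 10 regulators tested rose against WT in CD4 cells (10%). Against STAT3ko 1 rose and 1 fell in each subset, and against WT 0 rose and 1 fell in CD8 cells. Myc was at 77.5 and 65.9 CPM in WT CD4 libraries, 80.9 and 43.6 in STAT3ko and 97.7 and 56.7 in STAT3ko PD-1ko, and at 69.0 and 49.8, 79.7 and 43.5, and 98.3 and 56.0 in CD8 libraries. The first library was above the second in each of the 6 groups, and STAT3ko PD-1ko was above STAT3ko within both library numbers of both subsets. The edgeR test did not call Myc without the block, or with it (adjusted p = 0.174 against STAT3ko in CD4 and 0.101 in CD8 cells, 0.791 and 0.0998 against WT).

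Ribosomal and respiratory genes outside the members are given side by side only. The 79 cytosolic ribosomal protein genes had median log2 fold changes of 0.25 and 0.14 against WT in CD4 and CD8 cells and of 0.21 and 0.25 against STAT3ko, with 1, 3, 1 and 6 called higher (1.27%, 3.80%, 1.27% and 7.59%). With the block 9, 6, 9 and 9 rose (11.4%, 7.59%, 11.4% and 11.4%). All of these shares are under those of all genes given above. The 74 respiratory chain and ATP synthase subunit genes had 0.27 and 0.10 against WT and 0.25 and 0.25 against STAT3ko, with 2, 4, 3 and 6 called higher (2.7%, 5.41%, 4.05% and 8.11%), each under the share of all genes. With the block 11, 5, 11 and 10 rose (14.9%, 6.76%, 14.9% and 13.5%). The members had 0.31 and 0.28, and 0.34 and 0.31. Relative to the WT mean, the cytosolic ribosomal proteins had library medians of 0.28 and 0.18 in STAT3ko PD-1ko and of 0.15 and -0.16 in STAT3ko CD4 cells, and in CD8 cells the second STAT3ko PD-1ko library, at 0.0957, lay within the range of the WT libraries (-0.0969 to 0.0969).

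**Figure D5:**
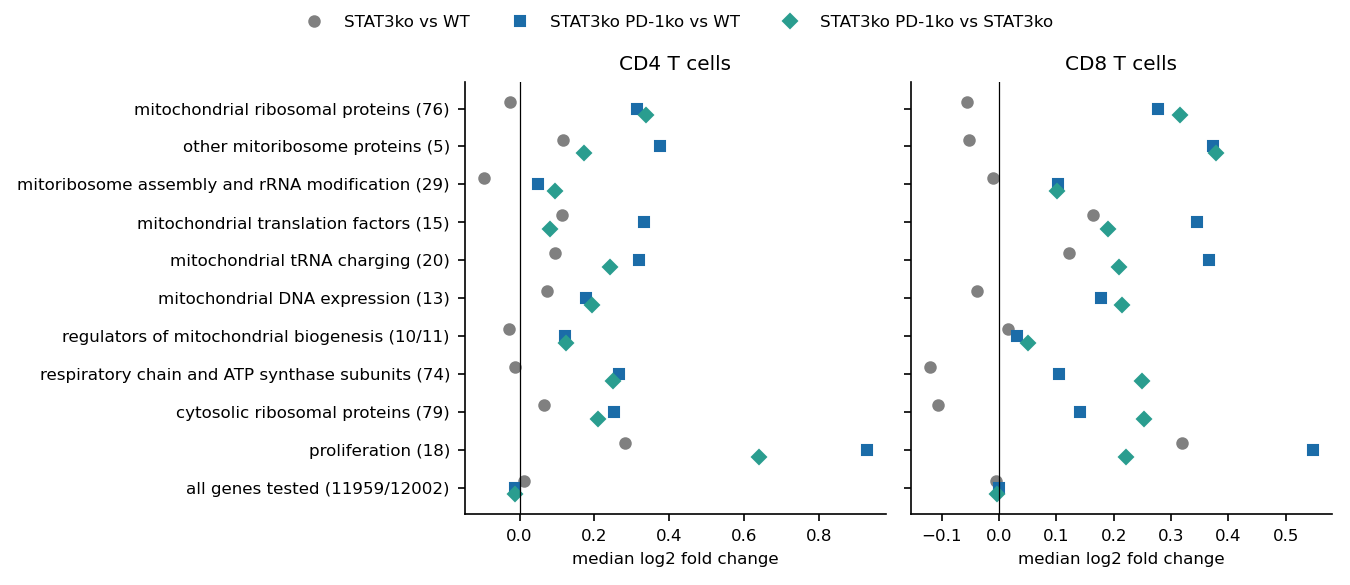
Median log2 fold change of each gene list (number of genes tested in brackets, CD4/CD8 where they differ) for the 3 genotype comparisons in CD4 (left) and CD8 (right) T cells, whose axes differ in range. The mitochondrial ribosomal proteins lie at 0.28 to 0.34 for STAT3ko PD-1ko against WT or STAT3ko, and proliferation genes reach 0.93 in CD4 cells. The median over all genes tested lies near 0, as the TMM factors centre the bulk of genes.

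Proliferation genes and markers of cell types moved with the genotype too. All 18 proliferation genes were higher in STAT3ko PD-1ko than in WT in both subsets, 16 called in CD4 and 11 in CD8 cells (18 and 16 with the block), with a median of 0.93 and 0.55. Against STAT3ko, 16 of the 18 proliferation genes rose in CD4 cells with the block (88.9%, background 13.2%). In CD8 cells 4 of the 18 did (22.2%, background 12.5%). Their summed level was 5143 and 4062 CPM in WT CD4, 5924 and 5213 in STAT3ko CD4, 8282 and 7858 in STAT3ko PD-1ko CD4, 7295 and 5924 in WT CD8, 9240 and 8255 in STAT3ko CD8, and 9637 and 9116 in STAT3ko PD-1ko CD8. Mki67 was their most abundant gene and none was at 0. The part of proliferation in the members' rise was not tested. In STAT3ko CD8 cells, proliferation genes had a median of 0.32 against WT (0 of 18 called, all 18 positive) beside -0.06 for the members.

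Of 8 macrophage or Kupffer cell markers Itgam, the most abundant, fell in all 4 comparisons, from 39.7 to 55.3 CPM in WT and STAT3ko CD4 libraries to 11.99 and 7.19 in STAT3ko PD-1ko, and from 54.2 to 69.9 to 8.04 and 6.49 in CD8 libraries, and Cd68 fell in CD8 cells. Of the 6 markers tested, 3 fell against WT in CD4 and 4 in CD8 cells with the block, and 2 and 3 against STAT3ko. Itgam is also made by activated T cells and natural killer cells. The Kupffer cell marker Clec4f had 39, 25, 37 and 25 counts in the second libraries of WT and STAT3ko cells and 1 to 6 counts in the other libraries. The summed level of the 8 markers was 46.7 to 70.3 CPM in WT and STAT3ko CD4 libraries and 21.3 and 18.3 in STAT3ko PD-1ko, and 81.7 to 102 against 25.6 and 25.7 in CD8 libraries. Hepatocyte markers summed to 1.37 to 4.77 CPM, with Trf the most abundant (higher in STAT3ko PD-1ko than in STAT3ko CD8 cells, 1.73 ± 0.48) and Serpina1a at 0 in all but 1 library, and erythroid markers to at most 0.562 CPM, with Hbb-bs and Hba-a1 at 0 throughout. B cell markers summed to 1.63 to 14.7 CPM, most of it Cd79b, with Ms4a1 at 0, and Cd79b fell in STAT3ko PD-1ko CD8 cells (-1.18 ± 0.22 against WT). Endothelial markers were nearly all Pecam1 (110 to 198 CPM), which T cells also make, and natural killer markers summed to 14.2 to 85.9 CPM, nearly all of it Klrb1c and Eomes, of which Eomes was the higher in 3 CD8 libraries. Klrb1c fell in CD8 cells against WT (-1.62 ± 0.38), and with the block the 2 natural killer markers tested, Klrb1c and Eomes, fell there. Eomes was at 30.3 and 29.7 CPM in WT CD8 libraries and at 23.6 and 18.7 in STAT3ko PD-1ko. In CD4 cells Eomes rose (1.40 ± 0.26 against WT). Of the T cell genes, Cd8a and Cd8b1 fell in STAT3ko PD-1ko CD8 cells (-1.09 ± 0.12 and -0.87 ± 0.11 against WT), Cd3d, Cd247 and Lck fell against WT in CD8 cells and with the block in CD4 cells too, and Cd4 fell in CD4 cells (-0.52 ± 0.13). In CD4 libraries the low level of Cd8a was higher in STAT3ko PD-1ko than in WT with the block (log2 fold change 2.21, adjusted p = 0.00883) and did not pass without it (2.39, adjusted p = 0.129). Cd8a had 11 and 19 counts in the WT CD4 libraries, 9 and 44 in STAT3ko and 26 and 142 in STAT3ko PD-1ko. The difference thus leaned on the second STAT3ko PD-1ko library. In such pooled RNA, fewer cells of a type and less RNA per cell cannot be told apart, and the part of these shifts in the members' values was not tested.

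Since most members moved together, their start regions were read for shared letters, in windows from 250 bases before to 50 after the start site (RefSeq, GRCm38.p6, the build mm10 names). Windows were matched by symbol for 66 of 76 members. The 7 letters CCGGAAG, the core bound by ETS-family factors such as GABP, occurred on either strand in 23 of 66 (34.8%), compared with 19.5% of 9576 genes tested and 11.8% of 18145 genes of the table. ATGGCGG, of YY1, occurred in 13 (19.7%, 8.68% of genes tested), GCATGCG, of NRF1, in 8 (12.1%, 6.83%) and CACGTG, the E-box read by Myc, in 5 (7.58%, 10.3%). None of the 4 contains another. The stretches before the start sites of 3 members that rose and of Mrpl58, which fell, leave out annotated exons and neighbouring genes. That of Mrpl12 ends 24 bases before its start site. The stretches are shown 5′ to 3′ with ETS letters of either strand in capitals:
Mrps27 (chr13:99344706-99344785, plus strand): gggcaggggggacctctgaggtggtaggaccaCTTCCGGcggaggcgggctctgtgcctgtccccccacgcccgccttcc
Mrps22 (chr9:98601680-98601879, minus strand): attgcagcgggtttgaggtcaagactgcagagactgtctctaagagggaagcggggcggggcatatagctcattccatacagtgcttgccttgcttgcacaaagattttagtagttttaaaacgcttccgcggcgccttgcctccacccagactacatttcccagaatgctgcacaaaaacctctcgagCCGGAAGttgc
Mrpl12 (chr11:120484437-120484612, plus strand): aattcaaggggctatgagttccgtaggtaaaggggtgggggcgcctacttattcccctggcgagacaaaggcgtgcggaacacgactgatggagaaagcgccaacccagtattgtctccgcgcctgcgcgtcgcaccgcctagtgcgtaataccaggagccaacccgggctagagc
Mrpl58 (chr11:115403552-115403751, plus strand): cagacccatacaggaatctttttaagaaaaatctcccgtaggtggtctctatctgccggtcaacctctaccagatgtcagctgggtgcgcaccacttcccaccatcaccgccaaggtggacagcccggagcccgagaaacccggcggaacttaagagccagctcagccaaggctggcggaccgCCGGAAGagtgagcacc
Mrps27, Mrps22 and Mrpl58 hold 1 match each and Mrpl12 none in the stretches shown. Whether the letters go with the changes of the members was not tested. A match is a description and not a binding site.

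Many members share their start region with another gene. Of 76 members 29 (38.2%) had a gene beginning within 1000 bases upstream on the other strand, compared with 15.3% of 12269 genes tested. Mrpl46 and Mrps11, 1 gene of each subunit, start 42 bases apart. Mrps12 lies 147 bases from Sars2, the mitochondrial seryl-tRNA synthetase, and Mrpl47 lies 308 bases from Ndufb5, a subunit of complex I. Mrps27 lies 108 bases from Ptcd2. For Mrpl46 and Mrps11 the log2 fold changes for STAT3ko PD-1ko against WT were 0.32 ± 0.25 and 0.37 ± 0.19 in CD4 cells and 0.14 ± 0.15 and 0.41 ± 0.17 in CD8 cells, none called.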

How the data were processed

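Liver donor T cells of 6 groups (3 genotypes, CD4 and CD8, 2 libraries each) were analysed from the gene count table that the authors deposited. The authors aligned single-end reads to mm10 with STAR, counted RefSeq genes with HTSeq-count and normalized with edgeR; the submitters' processing notes name GRCm38 and mm10. The strand setting of the counting is not given in the sources used here. The deposited counts are whole numbers, and the table's exon length served for levels per length. A deposited RPKM table was not used.

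Counts were tested with edgeR 4.0.16 in R 4.3.3 (quasi-likelihood test, TMM, filterByExpr with a minimum count of 10 and a minimum total of 15, adjusted p threshold 0.05 over all genes tested), fitting CD4 and CD8 libraries apart, 6 each (3 residual degrees of freedom; 11959 genes in CD4, 12002 in CD8). Subset comparisons and interactions used 1 fit of 12 libraries (12334 genes). Standard errors are the log2 fold change divided by the square root of F. DESeq2 1.42.0 was an alternative. The script was tested on simulated data. Same-numbered CD4 and CD8 libraries of a genotype come from the same livers, and their deviations from the group means correlated (r = 0.583 to 0.646 in 3 pairs). Library numbers may mark batches: titles number each set in its own run, the study's methods name 2 batches only for receptor sequencing, and its RNA-Seq data combine replicate experiments without saying which library is of which. Deviations of same-numbered libraries correlated in all 3 genotype pairs of CD4 cells (r = 0.199 to 0.630) and in 2 of 3 in CD8 cells (r = 0.651, 0.160 and 0.060). For member counts, most gene lists and several named members, values with the number as a block therefore stand beside those without it. The p-values measure the spread between these pools of recipients. Intervals of counting error are not given for single genes, whose precision the counts per library limit.

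The members and gene lists were chosen with earlier results of these data known. Named members were, by rule, those called with the largest changes and no overlap, a fixed set of known roles, the extremes of level per length and of likeness, and, of each list, up to 3 called genes per comparison. Sequence sharing was read from GENCODE vM21 transcripts as 51-base stretches on either strand; start regions came from RefSeq, with windows within 1000 bases of the gene start in the table. Figures were drawn with matplotlib 3.10.9. Alternatives were another test, scaling and filter, a fit of 4 libraries, a replicate term, the subunit by structure and leaving out each library.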

Additional observations from a re-analysis of the deposited data

How the results depend on the processing

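The count of members called depended on the fit more than the medians did. For STAT3ko PD-1ko against WT in CD4 cells, 3 members (12.9% of all genes called in either direction) became 7 with DESeq2 (18.1%), 6 with only the 4 libraries compared (16.5%) and 13 with the replicate block (26.0%). Against STAT3ko in CD4 cells, 6 (11.1%) became 15 with DESeq2 (17.6%) and 19 with the block (26.0%). In CD8 cells against WT, 11 (17.2%) became 7 with only the 4 libraries (16.5%) and 18 with the block (24.7%). CD8 against CD4 in WT called 0 members (10.5%), 2 with DESeq2 (12.3%) and 3 with the replicate block (16.3%). With a term for the pool it called 7 in WT (24.3%), 13 in STAT3ko (24.9%) and 2 in STAT3ko PD-1ko (14.4%), in place of 0, 2 and 0. The causes were not tested. No called member of the genotype comparisons lost its call with the replicate block.

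Within a library number, a setting chosen after seeing the data, the members' median was 0.1739 against WT and 0.2032 against STAT3ko in CD4 cells for number 1, and in CD8 cells 0.2264 against WT for number 1 and 0.2348 and 0.4280 against STAT3ko for numbers 1 and 2. For STAT3ko against WT in CD8 cells it was -0.0348 and -0.0783. The large minus small difference was -0.0206 for STAT3ko against WT in CD4 cells (number 1), 0.0733 in CD8 cells (number 2), -0.0588 for STAT3ko PD-1ko against STAT3ko in CD4 cells (number 2) and -0.1510 in CD8 cells (number 2), and 0.0054 and -0.1806 against WT in CD8 cells.

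Leaving out single libraries gave 0 to 6 and 0 to 7 members called in CD4 cells against WT and STAT3ko, 0 to 7 and 0 to 14 in CD8 cells, and 0 to 1 for CD8 against CD4 in STAT3ko. The shares of all genes called in the same fits were 0.527% to 16.3% and 0% to 10.2%, 0.933% to 15.8% and 0.0167% to 15.6%, and 3.56% to 6.27%. The members' median log2 fold change ranged from 0.22 to 0.38 and from 0.25 to 0.37 in CD4 cells and from 0.24 to 0.28 and from 0.28 to 0.36 in CD8 cells against WT and STAT3ko, and from -0.161 to 0.0402 (CD4) and -0.0796 to -0.0176 (CD8) for STAT3ko against WT. With no filter the last was -0.0504. The large minus small difference ranged from -0.0782 to 0.0310 and -0.0508 to 0.0022 in CD4 cells and from -0.166 to 0.0166 and -0.122 to -0.0369 in CD8 cells, and for STAT3ko against WT from -0.0339 to 0.0570 (CD4) and from 0.0321 to 0.0507 (CD8).

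No called member kept its call in every alternative, but each kept its sign in the 12 alternatives of its genotype comparison. Medians without members that share over 10% of their 51-base stretches, an alternative chosen after seeing the data, moved by less than the spread between replicates. With 2 libraries a group, the fit without 1 of them assumes that the other varies like the rest.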
